A study of Drosophila melanogaster with 9 samples.

Results

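Drosophila larval brains mutant for brat were compared after 18 hr of Insensible (Insb) overexpression and without it (0 hr). The comparison used 6 of the 9 RNA sequencing libraries of the study, 3 at 18 hr and 3 at 0 hr. The other 3 libraries, after 9 hr, served to estimate the spread between replicates, with replicates 2 and 3 at 9 hr, which differed less than any other pair of replicates, summed and counted as 1 sample. All larvae were brat11/Df(2L)Exel8040 and carried 2xTub-Gal80ts, Wor-Gal4 and UAS-insb, in the 0 hr group too. The driver, used with AseGal80, acts in type II neuroblasts, and Gal80ts holds it inactive until the temperature is raised. By the study's methods, the 18 hr group was moved to 33 °C for its last 18 hr, and the 0 hr group stayed at 25 °C throughout. Duration of Insb overexpression and duration of heat therefore cannot be told apart. The labels give 5 days of growth at 25 °C and induction at 33 °C for both groups. They do not say whether the 18 hr fall within the 5 days. In the methods the total growth time was the same for both groups. Each library came from pooled whole brains, so every cell type of the brain contributed RNA.

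Type II neuroblasts are neural stem cells that divide asymmetrically. One daughter remains a neuroblast and the other becomes an intermediate neural progenitor (INP), which matures, divides several times and gives rise to ganglion mother cells and neurons. Loss of the translational repressor Brat lets immature INPs revert, so that brat mutant brains fill with type II neuroblasts. Notch signaling keeps the neuroblast state through targets such as the E(spl) repressors, and Insb is a nuclear inhibitor of that output. The comparison asks which genes differ once the supernumerary neuroblasts have had 18 hr of Insb.

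Library totals ran from 32859298 to 35092683 counts at 18 hr, against 29389923 to 37109356 counts at 0 hr. Levels are given as CPM, the counts scaled to a common library size. The most abundant gene in every library was the non-coding RNA gene cherub, with between 2.16 and 3.52% of all counts. Neuroblast and glial markers were present throughout. The neuroblast gene dpn had 157, 198 and 211 CPM at 18 hr and 186, 165 and 166 CPM at 0 hr, and the glial gene repo had 59.4, 59.7 and 57.6 CPM at 18 hr and 58.4, 56.0 and 65.2 CPM at 0 hr. Transcripts of brat itself were still counted, at 197, 280 and 248 CPM at 18 hr and 223, 256 and 281 CPM at 0 hr. The groups overlapped for all 3 genes. However, dpn does not stand for all neuroblast markers. Of 20 tested, 7 had an unadjusted p under 0.05 by edgeR with lower levels at 18 hr and 2 with higher levels. Over all genes the shares were 7.05% and 8.46%. The median log2 fold change of these markers was -0.09.

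One library stood apart. Summed over 11 fat body markers, the level was 1329 CPM in 18 hr replicate 1, against 325 and 381 CPM in the other 18 hr libraries and 582, 392.4 and 408 CPM at 0 hr. The larval serum protein gene Lsp1beta had 241 CPM in 18 hr replicate 1, against 1.23 and 3.70 CPM in the other 18 hr libraries and 35.7, 8.39 and 2.95 CPM at 0 hr. Summed over 12 hemocyte markers, the levels were 490, 146 and 316 CPM at 18 hr and 320, 268 and 138 CPM at 0 hr. Both sums thus varied several-fold within a group. None of the tested markers of fat body, hemocytes, muscle or ring gland was called by edgeR, and DESeq2 called 1 muscle marker lower. The groups overlapped for 10 of 11 fat body, 12 of 12 hemocyte, 15 of 16 muscle and 10 of 11 ring gland markers. The part of these cells in the results below was not tested.

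Heat shock genes varied within groups as well. Summed over the 7 Hsp70 genes, the inducible chaperones of the heat shock response, the level was 240.5, 2403 and 369 CPM at 18 hr and 165, 261 and 4184 CPM at 0 hr. The highest library was thus a 0 hr one, kept at 25 °C by the study's methods, and the groups overlapped for every Hsp70 gene. No Hsp70 gene, none of 9 small heat shock genes and none of 15 cytosolic chaperone genes was called by edgeR or DESeq2. Among the cytosolic chaperones, 4 genes had an unadjusted p under 0.05 with higher and 1 with lower levels at 18 hr, beside 8.46% and 7.05% of all genes. One of them was Fkbp59, a peptidyl-prolyl isomerase, with 335, 326 and 327 CPM at 18 hr and 259, 254 and 288 CPM at 0 hr. The mitochondrial co-chaperone gene CG11267 had 275, 258 and 254 CPM at 18 hr and 195, 195 and 198 CPM at 0 hr, and its log2 fold change of 0.42 was under the fold threshold (SE 0.06, adjusted p = 0.034).

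**Figure D1:**
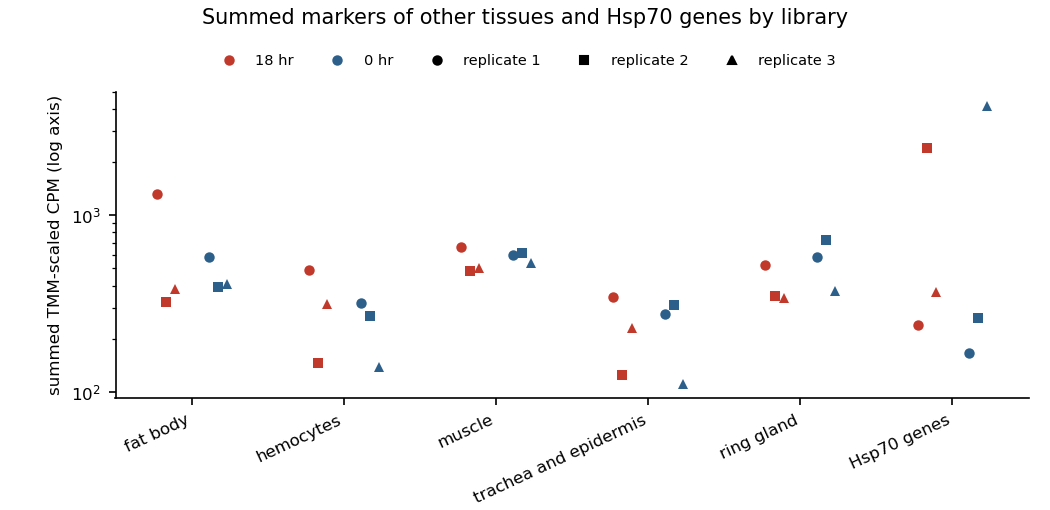
Summed TMM-scaled CPM (log axis) of the tested markers of 5 tissues other than neural cells and of the Hsp70 genes, with 1 point per library, 18 hr left of 0 hr. Fat body markers were highest in 18 hr replicate 1 (1329 CPM), and Hsp70 genes in 0 hr replicate 3 (4184 CPM) and 18 hr replicate 2 (2403 CPM).

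The overexpressed gene checked the labels. insb, listed under its older name CG6520 and lying on chromosome 2R from 17475214 to 17476272 of dm6, had 310, 341 and 359 CPM at 18 hr and 32.8, 32.5 and 36.9 CPM at 0 hr. All 18 hr libraries were far above all 0 hr libraries, with a log2 fold change of 3.30 (standard error, SE, 0.09), and an adjusted p of 1.15e-05 by the quasi-likelihood test of edgeR, adjusted after Benjamini and Hochberg. The count does not tell transcripts of the transgene from those of the endogenous gene.

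Of 10985 genes tested, 32 were called higher (0.291%) and 17 lower (0.155%) at 18 hr than at 0 hr. A call needed an adjusted p under 0.05 by edgeR and a change of at least 1.5-fold, and the word is used in this sense below unless DESeq2 is named. The 3 libraries of each group did not overlap in any of the 49 called genes. Over all genes tested, every 18 hr library lay above every 0 hr library in 11.3% and below in 9.33%, and an unadjusted p under 0.05 was reached by 8.46% with higher and 7.05% with lower levels at 18 hr. DESeq2 on the same libraries called 109 higher and 66 lower, including all 49. A test against a 1.5-fold change left 4 higher and 1 lower. Without 18 hr replicate 1, the library rich in fat body markers, 43 genes were called higher and 20 lower, of which 27 and 11 were among those above. The fits that left out 1 of the 6 compared libraries called between 8 and 43 genes higher and between 2 and 20 lower. In every one of these fits 7 genes were called, namely insb, CR44905, CG10700, Lim3, ase, E(spl)mgamma-HLH and CG42375. The other 42 lost their call in at least 1 of them, and the highest adjusted p of any called gene with 1 library left out was 0.174. In these bulk samples, fewer cells of a type and less RNA per cell cannot be told apart.

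**Figure D2:**
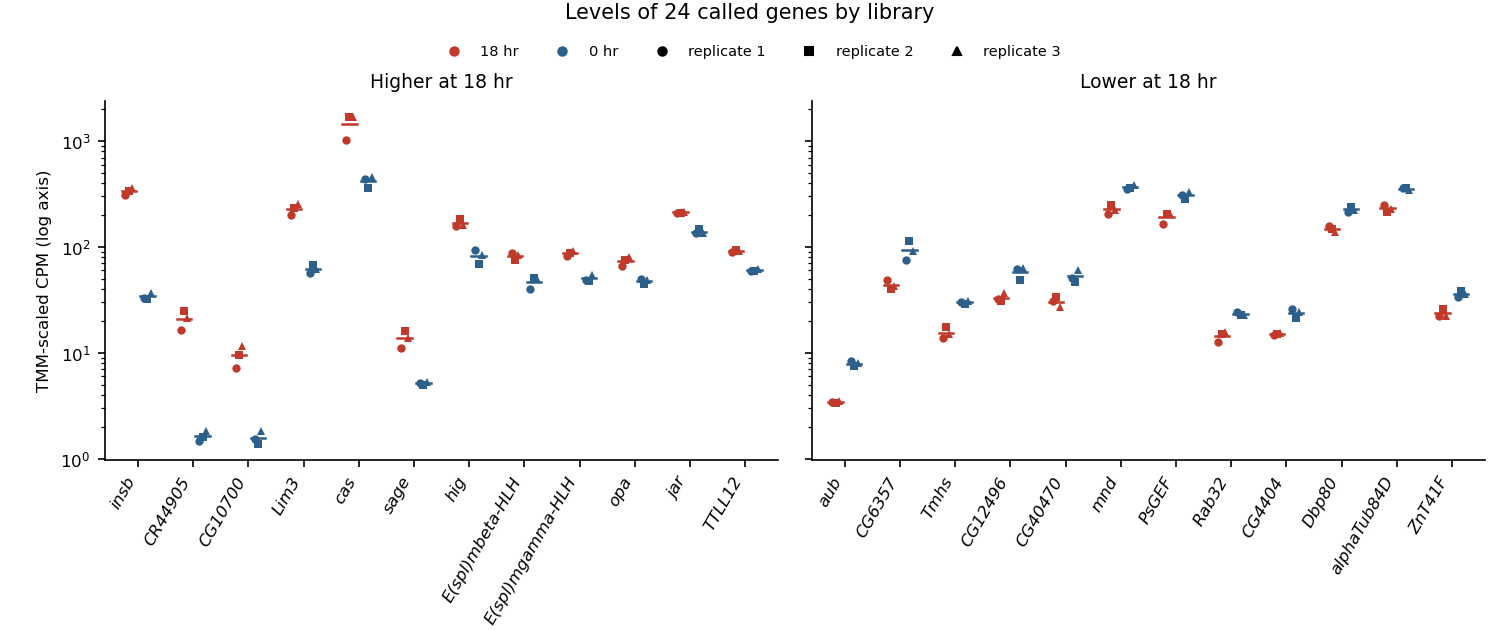
TMM-scaled CPM (log axis) of 24 called genes, 12 higher at 18 hr and 12 lower, with 1 point per library and a line at the group mean, 18 hr left of 0 hr. The groups do not overlap for any of them, and for cas 18 hr replicate 1 is the lowest of its group at 1026 CPM.

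Called genes with large rises sat together on the genome. CG10700, Lim3, CG17344 and lncRNA:CR44905, 4 genes in all, occupied an interval of 32608 bases on chromosome 2L of dm6, from 19077276 to 19109883, and they were the 4 tested genes in it. Lim3 encodes a LIM homeodomain transcription factor that specifies motor neuron and interneuron identities. It had 199, 235 and 254 CPM at 18 hr and 56.6, 67.4 and 61.7 CPM at 0 hr. The lowest 18 hr library was thus well above the highest 0 hr library, with a log2 fold change of 1.89 (SE 0.11, adjusted p = 0.00112).

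The non-coding RNA gene lncRNA:CR44905, which starts at 19108785, beyond the end of Lim3 at 19108427, had 16.5, 24.7 and 21.4 CPM at 18 hr and 1.48, 1.59 and 1.81 CPM at 0 hr. Its log2 fold change, 3.68, exceeded that of insb (SE 0.18, adjusted p = 0.000338). CG10700, which ends 227 bases before Lim3 starts, had 7.23, 9.51 and 11.7 CPM at 18 hr and 1.54, 1.39 and 1.81 CPM at 0 hr, with a log2 fold change of 2.58 (SE 0.22, adjusted p = 0.00916). All 18 hr libraries were again above all 0 hr libraries for both genes. CG17344 lies within the span of Lim3, from 19102044 to 19102909, and was low, at 0.97, 1.53 and 1.96 CPM at 18 hr and 0.20, 0.20 and 0.14 CPM at 0 hr. Its log2 fold change was 3.01 (SE 0.36, adjusted p = 0.0201), and it also overlaps an exon of CG43731 on the same strand, so that its count is uncertain.

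No further gene on either side was called. CG10702 and CG17343, before the interval, had log2 fold changes of 0.01 (SE 0.10) and 0.06 (SE 0.07), and CG10561, after it, had 0.05 (SE 0.13), with overlapping groups in each. Ddc, the next gene after CG10561, had -0.39 (SE 0.21) with overlapping groups. CG17572, between these and CG10700, had 0.70, 0.57 and 1.44 CPM at 18 hr and 0.46, 0.14 and 0.19 CPM at 0 hr. Its groups did not overlap but it was not called (log2 fold change 1.74, adjusted p = 0.217). The gene brat starts 23932 bases beyond the interval, at 19133816. At 9 hr, Lim3 had 216 CPM in replicate 1 and 239 CPM in replicates 2 and 3 summed, and lncRNA:CR44905 had 27.6 and 25.7 CPM. Of 8 tested LIM homeodomain genes Lim3 was the only call. The log2 fold changes of the others were -0.35 for tup, -0.26 for CG4328, -0.25 for ap, -0.23 for Bx, -0.12 for Lim1, -0.07 for Lmx1a and 0.28 for Awh.

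**Figure D3:**
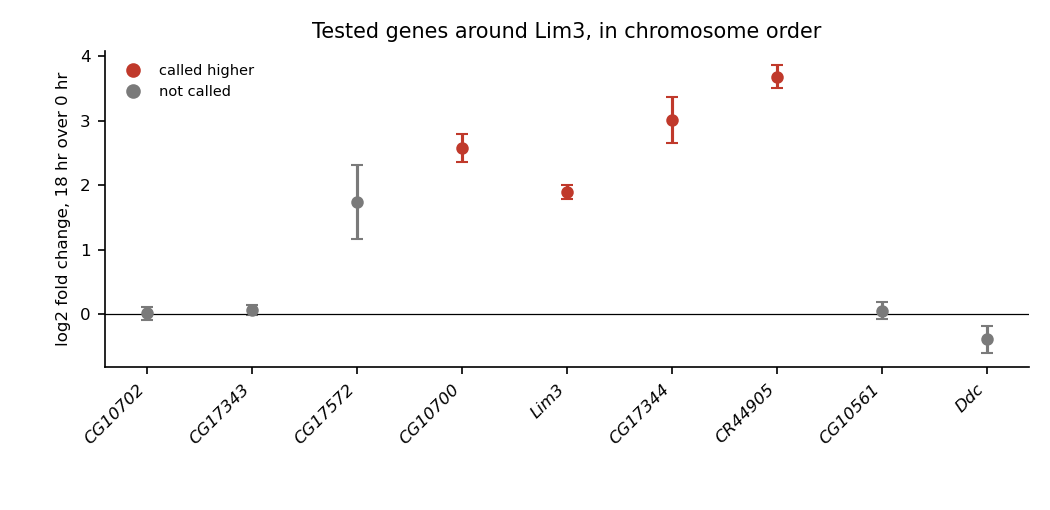
Log2 fold change, 18 hr over 0 hr, with its standard error, of the 9 tested genes around Lim3 in chromosome order. The 4 neighbouring genes from CG10700 to CR44905 were called higher, at between 1.89 and 3.68. CG17572 was not called at 1.74, and CG10702, CG17343 and CG10561 lay between 0.01 and 0.06, with Ddc at -0.39.

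Other called genes were neighbours too. Within 50000 bases of each other lay E(spl)mgamma-HLH and E(spl)mbeta-HLH, ase and arg, both pairs higher at 18 hr, and PsGEF and CG12496, both lower. Members of other such pairs moved apart, as with alphaTub84D, lower, and alpha-Est2, higher, and with Rab32, lower, and hig, higher. PsGEF, which encodes a guanine nucleotide exchange factor, had 165, 205.2 and 205.1 CPM at 18 hr and 312, 285 and 329 CPM at 0 hr (log2 fold change -0.69, SE 0.10, adjusted p = 0.0393). CG12496, 21700 bases away on the X chromosome, had 32.1, 31.0 and 36.6 CPM at 18 hr and 61.4, 48.6 and 63.3 CPM at 0 hr (log2 fold change -0.80, SE 0.12, adjusted p = 0.0393). Neither gene's groups overlapped.

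The list of temporal patterning factors holds transcription factors and a few RNA-binding proteins such as Imp, Syp and lin-28. Neural progenitors express such factors one after another, and the factor present when a neuron is born helps set its identity. Of 26 tested members, edgeR called 2 higher and none lower, beside 0.291% and 0.155% of all genes. Against this, 13 had an unadjusted p under 0.05 with lower levels at 18 hr, a share of the list to be read against 7.05% of all genes. The median log2 fold change of the list was -0.22, against 0.01 over all genes tested.

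The largest change was that of cas (castor), a zinc finger factor of the embryonic temporal series. It had 1026, 1687 and 1686 CPM at 18 hr and 437, 362 and 462 CPM at 0 hr, with the lowest 18 hr library, replicate 1, well above the highest 0 hr library. The log2 fold change was 1.80 (SE 0.20, adjusted p = 0.0157). Over the fits that left out 1 library, it lay between 1.68 and 2.01 and its adjusted p reached 0.0856. opa (odd paired), a zinc finger factor that acts in early INPs, had 65.7, 75.5 and 79.7 CPM at 18 hr and 49.5, 44.5 and 48.4 CPM at 0 hr (log2 fold change 0.63, SE 0.08, adjusted p = 0.0289). Its groups did not overlap, and its adjusted p was over 0.1 in some fits with 1 library left out. Oaz, another zinc finger gene of the list, was not called, at 63.7, 67.3 and 70.6 CPM at 18 hr and 48.5, 50.0 and 60.9 CPM at 0 hr.

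Among the members with lower levels, none was called by edgeR and 2 by DESeq2. hth (homothorax), a homeodomain gene expressed early in the optic lobe series, had the smallest unadjusted p of these, 0.000852, with 156, 162 and 137 CPM at 18 hr and 200, 225 and 199 CPM at 0 hr (log2 fold change -0.46, SE 0.08, adjusted p = 0.0715). scro (scarecrow), which marks late INPs, had 80.7, 94.6 and 79.7 CPM at 18 hr and 106, 137 and 131 CPM at 0 hr (log2 fold change -0.55, adjusted p = 0.091). grh (grainy head), of the middle INP window, had 299, 434 and 367 CPM at 18 hr and 548, 541 and 470 CPM at 0 hr (log2 fold change -0.50, adjusted p = 0.154). In all 3 genes the 18 hr libraries lay below the 0 hr libraries.

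The same separation, with unadjusted p under 0.05, held for svp, danr, klu, slp1, slp2, br, dan, lin-28, Imp and Syp. Imp and Syp encode RNA-binding proteins that follow each other in larval neuroblasts. Imp had 265, 291 and 245 CPM at 18 hr and 423, 308 and 441 CPM at 0 hr, and Syp had 793, 1131 and 930 CPM at 18 hr and 1188, 1160 and 1448 CPM at 0 hr. Both the early and the late marker were therefore at lower levels at 18 hr, and neither passed the adjustment (adjusted p = 0.136 and 0.231). svp had 68.8, 117 and 108 CPM at 18 hr and 162, 150 and 160 CPM at 0 hr (adjusted p = 0.145). For several of these genes 18 hr replicate 1, the library rich in fat body markers, was the lowest. Without it, 10 members had an unadjusted p under 0.05 with lower levels and the list's median was -0.18. The medians of the list under RLE and upper-quartile scaling were -0.22 and -0.20.

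**Figure D4:**
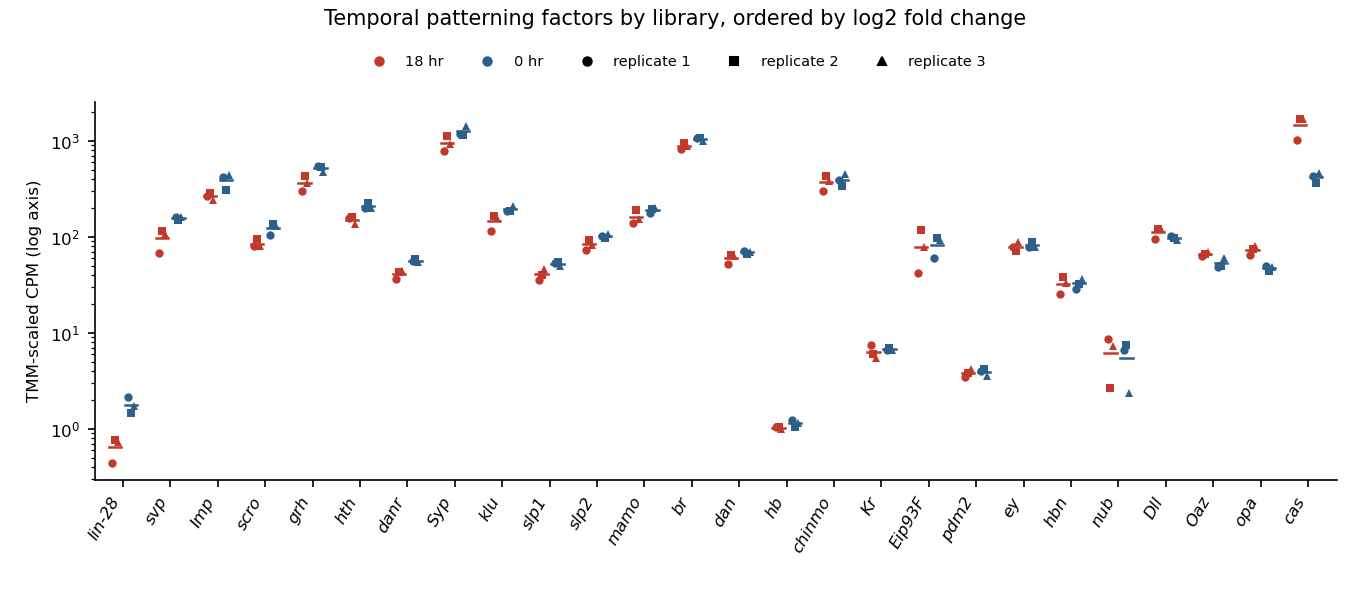
TMM-scaled CPM (log axis) of the 26 tested temporal patterning factors in each library, 18 hr left of 0 hr, ordered by log2 fold change, with lines at the group means. Most lie slightly lower at 18 hr, from lin-28 on the left to cas on the right, which had 1026 to 1687 CPM at 18 hr and 362 to 462 CPM at 0 hr.

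Markers along the type II lineage moved in both directions. Of 16 tested INP genes, 5 were called higher and none lower, beside 0.291% and 0.155% of all genes. Besides opa these were erm, ase, D and ham. The study had picked out erm, ase, D and ham from the same libraries, so their calls repeat its finding. A further 5 of the list had an unadjusted p under 0.05 with lower levels, beside 7.05% of all genes. They were scro, grh, slp1, slp2 and dan, which follow D in maturing INPs or act beside those factors. Of 13 tested genes of type II neuroblasts, 2 were called lower, tll and Six4, and 1 higher, E(spl)mgamma-HLH. The study had picked out tll from these libraries as well. pnt, which encodes an ETS factor needed for type II identity, was not called, at 175, 221 and 241 CPM at 18 hr and 304, 306 and 325 CPM at 0 hr (log2 fold change -0.55, SE 0.11, adjusted p = 0.091). Sp1, a zinc finger gene of these neuroblasts, lay the other way, at 281, 328 and 356 CPM at 18 hr and 249, 246 and 232 CPM at 0 hr (log2 fold change 0.41, adjusted p = 0.105). btd and dmrt99B, both also used as type II neuroblast markers, had log2 fold changes of 0.01 and 0.01. Of the 13, 6 had an unadjusted p under 0.05 with lower and 2 with higher levels, beside 7.05% and 8.46% of all genes. Summed over the list, the level was 2244, 2902 and 2796 CPM at 18 hr and 3038.5, 2964 and 3286 CPM at 0 hr. The sums did not overlap, while the median log2 fold change was 0.01. More members with such a p thus lay lower than higher, and the list did not move as 1 block.

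Of 12 tested genes of ganglion mother cells and newborn neurons, none was called by edgeR and 1 by DESeq2. An unadjusted p under 0.05 with higher levels was reached by 3, beside 8.46% of all genes. dap (dacapo), an inhibitor of cyclin E and its kinase that rises as cells leave the cycle, had 108, 111 and 114.9 CPM at 18 hr and 84.4, 91.5 and 94.3 CPM at 0 hr (log2 fold change 0.30, adjusted p = 0.0929). Hey, a Notch-responsive bHLH gene of newborn neurons, had 30.7, 36.7 and 43.1 CPM at 18 hr and 22.1, 24.4 and 26.0 CPM at 0 hr, a log2 fold change of 0.61 (adjusted p = 0.0985). tap, a proneural bHLH gene, had 176, 217 and 230 CPM at 18 hr and 151, 152 and 166 CPM at 0 hr (log2 fold change 0.41, adjusted p = 0.138). The groups did not overlap in any of the 3. pros (prospero), the homeodomain factor of ganglion mother cells, was at 975, 1293 and 1266 CPM at 18 hr and 1040, 942 and 979 CPM at 0 hr, with overlapping groups. Cell cycle genes gave no call by edgeR or DESeq2. Of 53 tested cyclins and mitotic regulators, 4 had an unadjusted p under 0.05 with higher and 1 with lower levels, and of 41 DNA replication genes, 4 and none, with medians of 0.04 and 0.02. Over all genes the shares with such a p were 8.46% and 7.05%.

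Of 19 tested genes of the E(spl) and Bearded complexes and related repressors, many of them Notch targets, edgeR called 2 higher and none lower. Over all genes the shares were 0.291% and 0.155%. DESeq2 called 4 higher and 1 lower, beside 109 and 66 of all 10985 genes tested. An unadjusted p under 0.05 was reached by 5 with higher and 2 with lower levels, beside 8.46% and 7.05% of all genes. E(spl)mgamma-HLH, a bHLH repressor present in neuroblasts, had 81.9, 88.0 and 92.5 CPM at 18 hr and 48.9, 47.7 and 54.6 CPM at 0 hr (log2 fold change 0.79, SE 0.07, adjusted p = 0.00945). E(spl)mbeta-HLH, 4284 bases away on chromosome 3R, had 87.0, 75.1 and 84.4 CPM at 18 hr and 40.0, 50.6 and 49.9 CPM at 0 hr (log2 fold change 0.81, SE 0.10, adjusted p = 0.0262). No 0 hr library reached the lowest 18 hr library for either gene. E(spl)m8-HLH missed the threshold, at 36.3, 34.4 and 46.3 CPM at 18 hr and 23.9, 23.9 and 21.5 CPM at 0 hr (log2 fold change 0.75, adjusted p = 0.0561). The bHLH gene E(spl)m5-HLH lay the other way at a low level, at 3.70, 2.78 and 2.72 CPM at 18 hr and 5.80, 5.48 and 5.76 CPM at 0 hr (log2 fold change -0.89, adjusted p = 0.091).

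The list's median log2 fold change was 0.12, and -0.07 without 18 hr replicate 1, so that no direction of the list as a whole can be given. At 9 hr, E(spl)mgamma-HLH had 78.3 CPM in replicate 1 and 79.6 CPM in replicates 2 and 3 summed, and E(spl)mbeta-HLH 62.6 and 63.3 CPM. Among 28 genes that encode components of the Notch pathway, such as the receptor, its ligands and the proteases that cut it, insb was the only call. The receptor gene N had 400, 426 and 457 CPM at 18 hr and 492, 453 and 475 CPM at 0 hr, with overlapping groups and a log2 fold change of -0.15 (SE 0.08). The list's median log2 fold change was 0.00. An unadjusted p under 0.05 was reached by 2 members, including insb, with higher levels and by none with lower levels. The shares over all genes were 8.46% and 7.05%.

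Several called genes belong to no list of neural lineage genes. hig (hikaru genki) encodes a secreted protein of the synaptic cleft and was the only call among 47 synaptic genes. It had 159, 184 and 162 CPM at 18 hr and 92.7, 69.2 and 83.5 CPM at 0 hr (log2 fold change 1.04, SE 0.11, adjusted p = 0.0157). jar (jaguar) encodes myosin VI, a motor that takes part in asymmetric neuroblast division, and had 210, 211 and 216 CPM at 18 hr and 134, 146 and 135 CPM at 0 hr (log2 fold change 0.62, SE 0.07, adjusted p = 0.0157). TTLL12, listed as CG1550 and of the tubulin tyrosine ligase-like family, had 89.3, 93.2 and 91.2 CPM at 18 hr and 59.1, 59.7 and 62.4 CPM at 0 hr. Its change was small but even, at 0.60 (SE 0.04, adjusted p = 0.0043), close to the fold threshold. sage, a bHLH gene known from the salivary gland, had 11.2, 16.1 and 13.8 CPM at 18 hr and 5.22, 5.00 and 5.26 CPM at 0 hr (log2 fold change 1.41, SE 0.17, adjusted p = 0.0201). In all 4 genes the lowest 18 hr library was above the highest 0 hr library. The adjusted p with 1 library left out reached 0.0856 for hig, 0.0882 for jar and 0.103 for sage.

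Among the called genes at low levels were enzymes and a junction protein. Cyp6t3, a cytochrome P450 gene linked to ecdysone synthesis, had 3.17, 3.80 and 2.91 CPM at 18 hr and 1.42, 1.39 and 1.502 CPM at 0 hr (log2 fold change 1.19, adjusted p = 0.0393). It overlaps an exon of CG8858 on the other strand. Of 56 tested P450 genes it was the only call by edgeR, and DESeq2 called 3 higher. An unadjusted p under 0.05 was reached by 9 with higher and 1 with lower levels, beside 8.46% and 7.05% of all genes. The carboxylesterase gene alpha-Est2 had 3.45, 2.99 and 2.08 CPM at 18 hr and 0.78, 0.64 and 0.39 CPM at 0 hr (log2 fold change 2.23, SE 0.32, adjusted p = 0.0386). It overlaps an antisense RNA gene. The gap junction gene zpg (innexin 4), known from the germline, had 2.06, 3.23 and 2.48 CPM at 18 hr and 0.64, 0.68 and 0.89 CPM at 0 hr (log2 fold change 1.81, adjusted p = 0.0382). None of these groups overlapped, and all 3 genes rested on few reads. arg (arginase), Mocs1, ver, CG14662, CG32625, CG31817, CG2217 and CG15864 were also called higher, with log2 fold changes between 0.62 and 2.81. Of these, arg, Mocs1, ver, CG14662 and CG2217 overlap an exon of another annotated gene, so their counts are uncertain.

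Among germline genes, aub (aubergine) fell. It encodes a Piwi protein of the germline that binds piRNAs. The gene had 3.45, 3.32 and 3.52 CPM at 18 hr and 8.29, 7.44 and 7.96 CPM at 0 hr (log2 fold change -1.20, SE 0.13, adjusted p = 0.0157). All 18 hr libraries were below 0 hr libraries by over 3 CPM. It overlaps an exon of TTLL4A on the other strand, so its count is uncertain. vas (vasa), a germline RNA helicase, was not called at 2.70, 2.96 and 3.18 CPM at 18 hr and 5.57, 4.83 and 4.98 CPM at 0 hr (adjusted p = 0.0715). Of 37 tested germline and piRNA genes, edgeR called aub lower and zpg higher, beside 0.155% and 0.291% of all genes. DESeq2 called 2 lower and 1 higher, and the list's median was 0.03.

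Among 33 tested transporters of amino acids and sugars, 1 was called lower, mnd, and none higher, and DESeq2 also called 1 lower. mnd (minidiscs) encodes an amino acid transporter that supports growth, and had 207, 247 and 225 CPM at 18 hr and 352, 360 and 388 CPM at 0 hr (log2 fold change -0.70, SE 0.08, adjusted p = 0.0157). path (pathetic), a transporter that acts with the growth regulator TOR, passed the adjustment with a change under 1.5-fold, at 963, 1014 and 916 CPM at 18 hr and 1384, 1347 and 1480 CPM at 0 hr (log2 fold change -0.54, SE 0.06, adjusted p = 0.0157). For both genes the highest 18 hr library was over 100 CPM below the lowest 0 hr library.

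CD98hc and CG1607, which are no members of the list and were chosen after their values were seen, were also lower. CD98hc encodes the heavy chain that pairs with transporters of the mnd type, and had 760, 799 and 758 CPM at 18 hr and 1056, 1053 and 1132 CPM at 0 hr (log2 fold change -0.48, adjusted p = 0.0157). CG1607, an amino acid transporter of that type, had 517, 487 and 466 CPM at 18 hr and 715, 622 and 728 CPM at 0 hr (log2 fold change -0.49, adjusted p = 0.0393). Both fell by less than 1.5-fold. JhI-21, a further light chain, was not called, at 243, 377 and 307 CPM at 18 hr and 453, 440 and 489 CPM at 0 hr (adjusted p = 0.14). Summed over the transporter list, the level was 3223, 3301 and 3024 CPM at 18 hr and 4126, 3874 and 4232 CPM at 0 hr, and the groups did not overlap. Most of this fall came from path, mnd and JhI-21, so the sum says little about the other members. The list had 6 members with an unadjusted p under 0.05 and lower levels and 1 with higher levels, beside 7.05% and 8.46% of all genes. Its median was -0.10.

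The insulin and growth pathway list shares mnd, path, JhI-21, slif and sbm with the transporters. Of its 36 members, 8 had an unadjusted p under 0.05 with lower and 1 with higher levels, beside 7.05% and 8.46% of all genes. The list had mnd as its call by edgeR, against 3 lower by DESeq2. Without 18 hr replicate 2 the 8 became 13. Its median was -0.12, and between -0.17 and -0.09 over the alternatives. Myc, the transcription factor that drives cell growth, had 229, 335 and 263 CPM at 18 hr and 406, 389 and 485 CPM at 0 hr (log2 fold change -0.63, SE 0.15, adjusted p = 0.126). Thor, the translation inhibitor 4E-BP, had 79.0, 142 and 86.4 CPM at 18 hr and 143, 169 and 185 CPM at 0 hr (adjusted p = 0.201). Neither was called, although their groups did not overlap, and 18 hr replicate 1 was lowest for both.

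Cytosolic ribosomal protein genes lay slightly above their 0 hr levels. Of 87 tested, 41 had every 18 hr library above every 0 hr library and 2 the reverse, beside 11.3 and 9.33% of all genes, and 24 had an unadjusted p under 0.05 with higher and 1 with lower levels. Over all genes 8.46% and 7.05% had such a p. The 24 became 13 without 18 hr replicate 3. None was called by edgeR and 1 by DESeq2, and the median log2 fold change was 0.08, between 0.05 and 0.10 over the alternatives. Summed over the list, the level was 142090, 143640 and 146780 CPM at 18 hr and 132170, 134120 and 130700 CPM at 0 hr. RpLP0, the stalk protein of the large subunit, had the smallest p and passed the adjustment at under 1.5-fold, at 2812, 2817 and 2854 CPM at 18 hr and 2391, 2272 and 2223 CPM at 0 hr (log2 fold change 0.30, SE 0.05, adjusted p = 0.0451). Rack1, a scaffold bound to the small subunit and chosen after its values were seen, had 3148, 3327 and 3328 CPM at 18 hr and 2700, 2613 and 2606 CPM at 0 hr (log2 fold change 0.31, adjusted p = 0.0393). RpL30 was one of the members that lay the other way, with a log2 fold change of -0.12. At 9 hr the summed level of the list was 150880 CPM in replicate 1 and 140840 CPM in replicates 2 and 3 summed. Mitochondrial ribosomal proteins and oxidative phosphorylation genes had medians of 0.05 and 0.06, and without 18 hr replicate 1 of -0.01 and -0.04, so that their direction rested on that library.

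Genes of neuronal surfaces and RNA binding lay on average slightly lower at 18 hr, without a call. Of 65 tested axon guidance and adhesion genes, 19 had every 18 hr library below every 0 hr library and 1 the reverse, and 13 had an unadjusted p under 0.05 with lower and 1 with higher levels. Over all genes, 9.33% lay wholly below and 11.3% wholly above, and 7.05% and 8.46% had such a p with lower and higher levels. The median of the list was -0.11. beat-IIa, a guidance protein of the immunoglobulin superfamily, had the smallest p, at 21.8, 27.2 and 22.1 CPM at 18 hr and 34.0, 42.6 and 42.5 CPM at 0 hr (log2 fold change -0.74, SE 0.12, adjusted p = 0.0577). Sema1a, a semaphorin, had 178, 232 and 199 CPM at 18 hr and 253, 254 and 280 CPM at 0 hr (log2 fold change -0.37, adjusted p = 0.156). DESeq2 called 1 gene of the list lower.

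The dpr and DIP genes encode products that bind each other between synaptic partners. Of 31 members, 10 had an unadjusted p under 0.05 with lower and 1 with higher levels, beside 7.05% and 8.46% of all genes. The list's median was -0.14, with no call by either tool. dpr12 had 58.7, 66.3 and 66.2 CPM at 18 hr and 78.4, 73.9 and 78.4 CPM at 0 hr (adjusted p = 0.144). DIP-alpha lay the other way, at 26.3, 38.9 and 33.9 CPM at 18 hr and 23.1, 21.7 and 26.4 CPM at 0 hr, with overlapping groups. Without 18 hr replicate 1, the lower members with an unadjusted p under 0.05 numbered 10 for the guidance genes and 6 for the dpr and DIP genes, and without 0 hr replicate 2 they numbered 7 and 3. Of 31 genes of the ELAV family and other RNA-binding proteins, which include Imp and Syp, 7 had an unadjusted p under 0.05 with lower levels and none with higher. The shares over all genes were 7.05% and 8.46%, and the list's median was -0.16. Without 18 hr replicate 2 the 7 became 11. By contrast, 47 synaptic genes and 62 genes of ion channels and transmitter receptors had medians of -0.04 and -0.05, and 16 markers of mature neurons had -0.05.

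**Figure D5:**
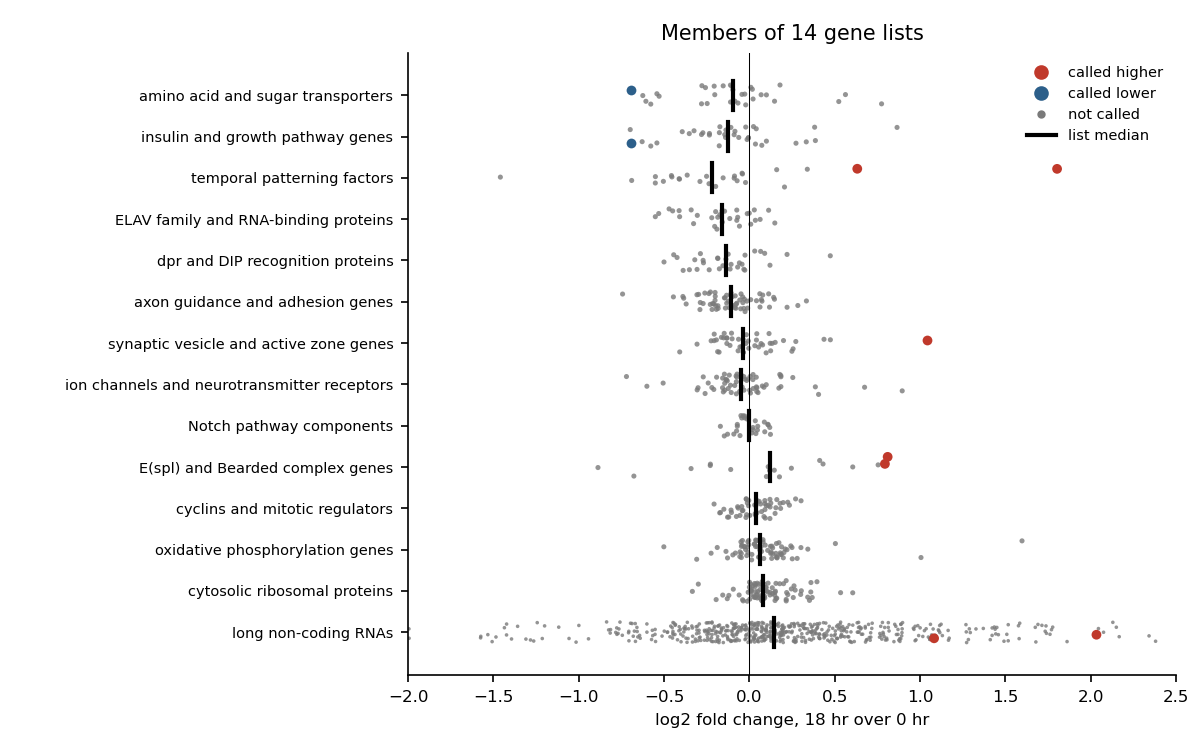
Log2 fold change, 18 hr over 0 hr, of the tested members of 14 gene lists, 1 point per gene, with called genes larger and in color and a bar at the list median. The axis is limited to -2 to 2.5, which leaves out 23 points. Medians lie between -0.22 for temporal patterning factors and 0.15 for long non-coding RNAs, and hig is the only called gene shown among synaptic genes.

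Of 597 tested long non-coding RNA genes, DESeq2 called 12 higher and 4 lower, beside 109 and 66 of all 10985 genes tested. The calls by edgeR were 3, all higher, namely lncRNA:CR44905, lncRNA:CR42646 and lncRNA:alphagamma-element:CR32865, beside 0.291% of all genes. An unadjusted p under 0.05 was reached by 60 with higher and 26 with lower levels, beside 8.46% and 7.05% of all genes. The list's median log2 fold change was 0.15, and between 0.08 and 0.19 over the alternatives. lncRNA:CR42646 had 5.54, 6.43 and 6.15 CPM at 18 hr and 2.75, 2.54 and 3.25 CPM at 0 hr (log2 fold change 1.08, adjusted p = 0.0382), with no overlap between the groups. lncRNA:alphagamma-element:CR32865 had 8.10, 14.2 and 10.4 CPM at 18 hr and 2.12, 1.99 and 3.84 CPM at 0 hr. Its groups did not overlap (log2 fold change 2.03, SE 0.31, adjusted p = 0.0454). Whether heat alone changes its level was not tested. Both lncRNA:CR42646 and lncRNA:alphagamma-element:CR32865 overlap annotated transposable elements. cherub, which is highly expressed in brat mutant neuroblasts, was not called. lncRNA:roX2, a non-coding RNA of dosage compensation that is expressed in males, had 29.1, 42.2 and 46.4 CPM at 18 hr and 9.86, 14.6 and 18.8 CPM at 0 hr (log2 fold change 1.44, SE 0.26, adjusted p = 0.0712). Its partner lncRNA:roX1 had 128, 212 and 155 CPM at 18 hr and 167, 139 and 150 CPM at 0 hr, with overlapping groups.

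The remaining genes called lower had diverse roles. alphaTub84D, an alpha tubulin gene, had 252, 215 and 229 CPM at 18 hr and 360, 357 and 342 CPM at 0 hr (log2 fold change -0.61, SE 0.07, adjusted p = 0.0157). Its coding sequence is close to those of other alpha tubulin genes, so reads may have been shared among them. Tmhs, named for a tetraspan membrane protein of hair cells in mammals, had 13.8, 17.5 and 15.1 CPM at 18 hr and 30.2, 28.7 and 31.0 CPM at 0 hr (log2 fold change -0.96, SE 0.10, adjusted p = 0.0157). CG6357 had 48.3, 40.2 and 42.7 CPM at 18 hr and 74.7, 113 and 92.2 CPM at 0 hr (log2 fold change -1.09, SE 0.16, adjusted p = 0.0386). In each of the 3 genes the 18 hr libraries were all lower than the 0 hr ones, and CG6357 varied most within the 0 hr group.

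Dbp80, a DEAD-box RNA helicase gene, had 157, 147 and 137 CPM at 18 hr and 216, 237 and 226 CPM at 0 hr (log2 fold change -0.62, SE 0.07, adjusted p = 0.0162). CG40470, on the same arm, 3L, had 30.9, 33.4 and 27.2 CPM at 18 hr and 51.0, 46.9 and 60.3 CPM at 0 hr (log2 fold change -0.79, SE 0.11, adjusted p = 0.0393). Both were lower still at 9 hr, at 97.6 CPM in replicate 1 and 106 CPM in replicates 2 and 3 summed for Dbp80, and at 18.3 and 19.0 CPM for CG40470. Rab32, listed as ltd and encoding a small GTPase of lysosome-related organelles, CG4404 and the zinc transporter gene ZnT41F had log2 fold changes of -0.68, -0.66 and -0.60. Jabba, a lipid droplet protein, had 3.12, 3.08 and 2.69 CPM at 18 hr and 5.62, 7.03 and 7.07 CPM at 0 hr (log2 fold change -1.15, SE 0.16, adjusted p = 0.0352). Jabba overlaps an exon of Cyp12b2. In the list of lipid metabolism and lipoprotein receptor genes edgeR called none, and DESeq2 1 higher and 1 lower. Of 31 tested genes, 3 had an unadjusted p under 0.05 with higher and 6 with lower levels, beside 8.46% and 7.05% of all genes. Of these, the lipoprotein receptor gene LpR2 had 55.2, 66.5 and 62.0 CPM at 18 hr and 93.3, 97.9 and 90.7 CPM at 0 hr (adjusted p = 0.0681), and the fatty acid synthase gene FASN1 had 770, 811 and 832 CPM at 18 hr and 537, 473 and 611 CPM at 0 hr (adjusted p = 0.105). The glial gene wrapper, an immunoglobulin protein of wrapping and cortex glia, passed the adjustment at under 1.5-fold, with 72.96, 63.7 and 69.0 CPM at 18 hr and 96.0, 99.4 and 100.3 CPM at 0 hr (log2 fold change -0.52, adjusted p = 0.0382). Of 20 tested glial markers none was called. An unadjusted p under 0.05 was reached by 2 with lower and 1 with higher levels, beside 7.05% and 8.46% of all genes. The groups overlapped for 16 of the 20, and the median was -0.06.

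Among called genes, the 2 largest fitted falls belonged to genes that share exons with a neighbour. CG42375 had 1 read in each 18 hr library and 443, 353 and 414 reads at 0 hr. CG9288, annotated on the same strand and with the same start and end, was called higher, at 31.5, 25.4 and 27.6 CPM at 18 hr and 16.6, 15.5 and 15.4 CPM at 0 hr. The summed level of both was 28.2 ± 3.09 CPM at 18 hr and 27.9 ± 1.31 CPM at 0 hr (SD, n = 3 each). sloth2, listed as CG42308, had 1, 1 and 7 reads at 18 hr and 440, 430 and 512 reads at 0 hr. sloth1, which overlaps it, lay the other way, at 17.7, 14.1 and 16.3 CPM at 18 hr and 2.46, 4.19 and 3.17 CPM at 0 hr. Together they had 16.1 ± 1.84 CPM at 18 hr and 17.1 ± 1.77 CPM at 0 hr (SD, n = 3 each). Reads of each locus as a whole thus differed between the groups by less than the spread between libraries. In all, 15 of the 49 called genes, 11 higher and 4 lower, overlap an exon of another annotated gene or transposable element. The share over all genes tested is not given here, so the count does not set the called genes apart.

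Little passed the test between 18 hr and 9 hr, a comparison that shares the 18 hr libraries. Of the 49 genes called against 0 hr, CG42375 was the 1 with an adjusted p under 0.05 by edgeR. In all, 16 of them had an unadjusted p under 0.05 against 9 hr, and DESeq2 gave 9 of the 49 an adjusted p under 0.05. The share of all genes tested with such a p against 9 hr is not given here, so the 16 cannot be read against it. CG2217 had 19.0, 19.0 and 18.4 CPM at 18 hr, against 29.8 CPM in 9 hr replicate 1 and 28.0 CPM in replicates 2 and 3 summed, and 10.9, 10.01 and 13.3 CPM at 0 hr. It was thus at an intermediate level at 18 hr, without passing the adjustment against 9 hr (adjusted p = 0.458). The gene overlaps an exon of CG42740 on the same strand, so its count is uncertain. hig, jar, TTLL12, Tmhs, mnd and alphaTub84D had log2 fold changes, 18 hr over 9 hr, between -0.07 and 0.08. Others differed more, at -0.85 for RhoGAP102A, 0.71 for CG40470 and 0.53 for Dbp80, none with an adjusted p under 0.05 by edgeR. RhoGAP102A, called higher against 0 hr (adjusted p = 0.0169), had 8.21, 6.67 and 5.81 CPM at 18 hr. Its 0 hr levels were 2.75, 2.54 and 2.61 CPM.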

How the data were processed

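Counts per gene were deposited by the authors as whole, unnormalized numbers. Per the labels and the study's methods, paired reads were aligned to dm6 with HISAT2 2.1.0 and assembled and counted with StringTie 1.3.4, after quality control with FastQC 0.11.3, and DESeq2 1.20.0 is also named. Whether counting used strand is not given in the sources used here. Of 14560 genes, 11086 matched a current symbol and 3348 an older one.

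The counts were tested with edgeR 4.0.16 (quasi-likelihood F test, TMM scaling, filterByExpr, limma 3.58.1, R 4.3.3) and Benjamini-Hochberg adjustment. All groups shared 1 estimate of the spread. Replicates 2 and 3 at 9 hr had a median chi-square per gene of 0.812, against 2.03 to 6.26 for other pairs of replicates. Sampling noise gives 0.455 for independent reads and 0.91 if both reads of a pair were counted, which is assumed here and not stated in the sources. On that assumption they were summed and counted as 1 sample, although single genes such as CG42375 differed, which left 8 libraries in the fit. A call required an adjusted p under 0.05 and at least 1.5-fold. SE is the log2 fold change over the square root of F. CPM values are TMM-scaled. The authors describe the samples as biological triplicates. Times and temperatures were taken from the labels, and the constant 25 °C of the 0 hr group from the study's methods.

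The genes and lists were chosen with earlier results of these data known. Named genes were insb, the 10 largest changes in each direction among called genes of at least 5 CPM, called members of a list, and members of a list with the smallest p or highest level. Further genes, among them CD98hc, CG1607, Rack1, CG17572, CG2217, Thor, RpL30 and sloth1, and the sums of overlapping genes, were chosen after their values were seen. Alternatives were DESeq2 1.42.0, other libraries in the fit, scalings, filters, thresholds, replicate blocks and leaving out each library. The test was tried on simulated data. A result that needs an item withheld for evaluation is not reported here.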

Additional observations from a re-analysis of the deposited data

Results flagged for a closer look

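CG42375 was the only gene with an adjusted p under 0.05 between 18 hr and 9 hr in the edgeR fit. Its fitted log2 fold change, 18 hr over 9 hr, was -8.118 (adjusted p = 0.00141). It had 1 read in each 18 hr library, 422, 31 and 347 reads in the 9 hr libraries and 443, 353 and 414 reads at 0 hr. It shares its start and end with CG9288, which had 31.5, 25.4 and 27.6 CPM at 18 hr and 16.6, 15.5 and 15.4 CPM at 0 hr, and the level of both genes summed overlapped between 18 hr and 0 hr.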

How the results depend on the processing

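The number of called genes depended on the fit, and none of the 49 called genes changed direction under any alternative run. With all 9 libraries as separate samples 60 genes were called higher and 30 lower, and with the 0 and 18 hr libraries alone 17 and 8. DESeq2 called 109 and 66, and gave 9 of the 49 genes called against 0 hr an adjusted p under 0.05 between 18 hr and 9 hr, where edgeR gave 1. Without a fold threshold 43 were higher and 30 lower, at 2-fold 18 and 7, and in a test against a 1.5-fold change 4 and 1. Leaving out each library in turn gave between 8 and 43 higher and between 2 and 20 lower. The other scalings (RLE, upper quartile) and filters (none, or at least 10 counts per library) gave between 26 and 39 higher and between 16 and 19 lower. A replicate block gave 32 and 18 with all 9 libraries, and 3 and 1 with the 0 and 18 hr libraries alone. Deviations of same-numbered 18 hr and 0 hr libraries correlated across genes at 0.431, -0.288 and -0.229, and not every sample correlated best with its own number. With 3 libraries per group this check cannot exclude that samples were collected in pairs, and the main fit used no pairing. The cause of these differences in counts was not tested.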
